A study of Mus musculus with 6 samples.

Results

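The metallothioneins *Mt1* and *Mt2* and 8 zinc transporter genes (*Slc30a1*, *Slc30a5*, *Slc30a7*, *Slc30a8*, *Slc30a9*, *Slc39a6*, *Slc39a7* and *Slc39a14*) were followed in MIN6 cells, a mouse pancreatic β-cell line derived from an insulinoma. These 10 genes were taken by their symbols from the 16640 genes with a read count. Zinc is stored in insulin granules, where it packs insulin into crystals, and β-cells are among the cells richest in this metal. Metallothioneins, small cysteine-rich proteins, bind zinc and help to keep its free level in the cytosol low. Most members of the Slc30 family (ZnT) move zinc out of the cytosol into organelles or out of the cell. The Slc39 family (ZIP) moves it into the cytosol. The transcription factor MTF1 senses zinc and is known to raise metallothionein genes and *Slc30a1* when zinc is abundant, and to repress *Slc39a10*.

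The cells were MIN6 lines made with lentiviruses by the SAM system, in which a catalytically dead Cas9 (dCas9) brings transcriptional activators to a promoter without cutting the DNA. In control cells the viruses delivered dCas9 and an sgRNA without a target, and in *Thada*-activated cells dCas9-VP64 and sgRNA-MS2-P65-HSF1 aimed at the *Thada* promoter. The activated line was selected with puromycin and then G418, the selection of the controls is not stated, and neither line is stated to be a single clone. RNA of each was sequenced in 3 libraries, numbered 1 to 3, on the BGISEQ-500 platform, with 17272834, 17166511 and 17689611 estimated counts in control and 17727004, 17385036 and 17224631 in *Thada*-activated replicates 1, 2 and 3. The study describes its in vitro work in general as repeated in independent experiments, but neither the labels nor the sequencing methods say whether these libraries came from separate cultures. The p-values therefore measure only the spread between these libraries, which may be technical. Levels are given in CPM, counts scaled to library size with TMM, a method that balances differences in composition, and between genes in FPKM, the authors' value scaled by gene length and library size.

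In both conditions replicate 3 lay far from the 4 other libraries, and the first principal component of log2 CPM, which separated them, carried 83.8% of the variance between libraries. Results are therefore given for the conditions, within each replicate number, and for replicate 3 against replicates 1 and 2. Whether replicate 3 was made or handled differently is not stated, nor whether libraries of the same number belong together. β-cell markers were present in all libraries, with *Ins2* at 5.65% to 10.2% of the counts, but the glucose transporter *Slc2a2* was nearly absent, from 0.0573 to 0.512 CPM. The 9 β-cell markers summed to 108691, 97625 and 131374 CPM in control replicates 1, 2 and 3 and 102863, 100884 and 114515 CPM in *Thada*-activated replicates 1, 2 and 3, most of it *Ins2*. Of 18 markers of other pancreatic, stromal, endothelial and blood cells, 12 were in the table used, 4 of them (*Hhex*, *Cel*, *Sox9* and *Cdh5*) never above 3 counts. These 12 summed to 207, 173 and 124 CPM in control replicates 1, 2 and 3 and 193, 184 and 128 CPM in *Thada*-activated replicates 1, 2 and 3, with the δ-cell hormone *Sst* the most abundant. In each condition the first sum was highest and the second lowest in replicate 3, but each follows its most abundant gene and not most of its list. Of the 8 tested β-cell markers, 6 were lower and 2 (*Ins1* and *Ins2*) higher in replicate 3 at an adjusted p under 0.05 in edgeR, against 34.4% and 34.3% of all tested genes, with a median log2 fold change of -0.45. With a fold change over 1.5 as well, 3 of them were lower (*Pdx1* -1.03, *Pcsk1* -0.81 and *Mafa* -0.61) and 1 higher (*Ins1* 0.82), against 15.4% and 15.7% of all tested genes. Of the 7 tested markers of other cells, 2 were called lower (*Sst* -1.14 and *Krt19* -0.83, whose libraries overlapped) and 2 higher (*Ppy* 0.70 and *Col1a1* 1.28) in replicate 3, against the same 15.4% and 15.7%, with a median of 0.20. Between conditions edgeR called 0 of the 8 and 0 of the 7 with or without the replicate number as a block. *Krt19*, a duct marker of low counts, had the largest estimate (1.79, unadjusted p = 0.00521, and 1.78 with the block, adjusted p = 0.0548), with 0.527, 0.524 and 0.344 CPM across control libraries 1, 2 and 3 below 2.36, 1.49 and 1.02 CPM across *Thada*-activated ones. Of the 7, only *Krt19* had an unadjusted p under 0.05 without the block and only *Krt19* and *Ppy* (0.33) with it, and none of the 8 did, against 0.807% and 10.4% of all tested genes. No other marker of the 15 had conditions that did not overlap in CPM, a pattern of 5.4% of all tested genes. The part of these markers in the results on zinc genes was not tested. In RNA from whole cultures, fewer cells of a type and less RNA per cell cannot be told apart.

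*Thada* itself stood at 28, 28.9 and 17.2 CPM across control libraries 1, 2 and 3, against 57.3, 56.2 and 49.1 CPM across *Thada*-activated libraries 1, 2 and 3. Every *Thada*-activated library was above every control library (two-sided exact test by permutation, p = 0.1, the lowest value possible with 3 libraries a group). Its log2 fold change by edgeR was 1.13 ± 0.22 (standard error, adjusted p = 1), and 1.15 ± 0.10 (standard error, adjusted p = 0.000410) once the replicate number entered edgeR as a block. DESeq2 called *Thada* without the block too, at 1.13 on the log2 scale (adjusted p = 0.0185). The labels of the conditions thus fit the level of the targeted gene in each library.

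Among the 10 genes the metallothioneins were the most abundant per kilobase. *Mt1* had 686 ± 290.0 FPKM in control and 705 ± 376 FPKM in *Thada*-activated cells (SD, n = 3), and *Mt2* had 235 ± 87.5 and 253 ± 105 FPKM (SD, n = 3). *Mt1* was above *Mt2* in each of the 6 libraries, by 2.06 to 3.12 times in FPKM. *Slc39a7* (ZIP7), which releases zinc from the ER into the cytosol, and *Slc30a8* (ZnT8), which loads zinc into insulin granules, came next. *Slc39a7* had 99 ± 3.92 and 95.4 ± 8.10 FPKM, and *Slc30a8* had 89.8 ± 36.6 and 97.5 ± 26.8 FPKM (control and *Thada*-activated, SD, n = 3). These neighbours were not separated, since *Slc39a7* was the higher of them in 2 of 6 libraries, both of them replicate 3 libraries.

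*Slc30a5* (ZnT5), which carries zinc into the secretory pathway, followed at 65.2 ± 2.70 FPKM in control cells (SD, n = 3), and was below *Slc30a8* in 5 of 6 libraries. *Slc30a9* was at 41.9 ± 3.94 and *Slc39a6* (ZIP6), a zinc importer of the plasma membrane, at 33.4 ± 6.14 FPKM in control cells (SD, n = 3), and their ranges over libraries did not meet. *Slc30a7* (ZnT7), a Golgi zinc transporter, was at 9.91 ± 1.43 and *Slc39a14* (ZIP14), an importer of zinc, iron and manganese, at 8.27 ± 2.13 FPKM in control cells (SD, n = 3). Their ranges overlapped, although *Slc30a7* was the higher in each library. *Slc30a1* (ZnT1), the exporter of the plasma membrane, was the lowest of the 10 at 2.65 ± 0.271 FPKM in control cells (SD, n = 3). Of the 25 genes of the metallothionein, Slc30 and Slc39 families with a read count, *Mt3* had rank 3 with a mean of 190.0 FPKM and *Slc30a4* rank 8 with 35.5 FPKM over all libraries, and both were picked out after their values were seen.

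Between *Thada*-activated and control cells, the quasi-likelihood test of edgeR called 0 of the 10 genes, and 0% of all 12516 tested genes, where a call needs a fold change over 1.5 and a Benjamini-Hochberg adjusted p below 0.05. None of the 10 had an unadjusted p under 0.05, against 0.807% of all tested genes. This fit counts the gap of replicate 3 as spread within a condition, and it did not call *Thada* either. Its coefficient of variation between libraries, as estimated by edgeR over all tested genes, was 0.253, against 0.063 with the block. The lack of calls in it therefore says little on its own about the 10 genes. The Wald test of DESeq2 called 0 of the 10 and 5 genes in all, and 0 of the 10 had an unadjusted p under 0.05 there too. With the replicate number as a block, edgeR called 0 of the 10 and 0.152% of all tested genes, and again none of the 10 had an unadjusted p under 0.05 while 10.4% of all tested genes did. The log2 fold changes of the 10 genes were from -0.11 to 0.20 with a median of -0.049, and the median over all tested genes was -0.004. With the block they were from -0.12 to 0.19 with a median of -0.045. All 10 passed the filter on low counts.

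*Mt1* stood at 331, 321 and 135 CPM across control libraries 1, 2 and 3, against 359, 352 and 109 CPM across *Thada*-activated libraries 1, 2 and 3. The conditions overlapped, and the replicate 3 libraries were the lowest of each. Its log2 fold change between conditions was 0.062 (standard error 0.54, adjusted p = 1 in edgeR's test), and within replicate numbers 1, 2 and 3 the log2 ratios were 0.12, 0.13 and -0.30. With the block the estimate lay on the other side of 0, at -0.0095 (standard error 0.082, adjusted p = 0.979 in edgeR), as it did in both limma fits on FPKM (-0.051). *Mt2* stood at 109.6, 115 and 53.6 CPM across control libraries 1, 2 and 3, against 121, 129 and 54.8 CPM across *Thada*-activated libraries 1, 2 and 3. In CPM it was higher in the *Thada*-activated library of each number, with log2 ratios of 0.15, 0.16 and 0.031 and a log2 fold change by edgeR of 0.13 ± 0.42 (standard error, adjusted p = 1). In FPKM replicate 3 turned, with 135 in the control and 131 FPKM in the *Thada*-activated library. With the replicate block edgeR gave 0.12 ± 0.063 (standard error, adjusted p = 0.557).

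In replicates 1 and 2 alone, without the libraries that stood apart, *Mt1* had an edgeR log2 fold change of 0.13 ± 0.049 and *Mt2* of 0.16 ± 0.055 (standard errors). Their unadjusted p-values were 0.0105 and 0.00598 and their adjusted p-values 0.147 and 0.108 in edgeR's test. In this fit edgeR called 0 of the 10 genes and 0.545% of all tested genes, and 3 of the 10 (these and *Slc30a1*) had an unadjusted p under 0.05, against 15.8% of all tested genes.

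**Figure D1:**
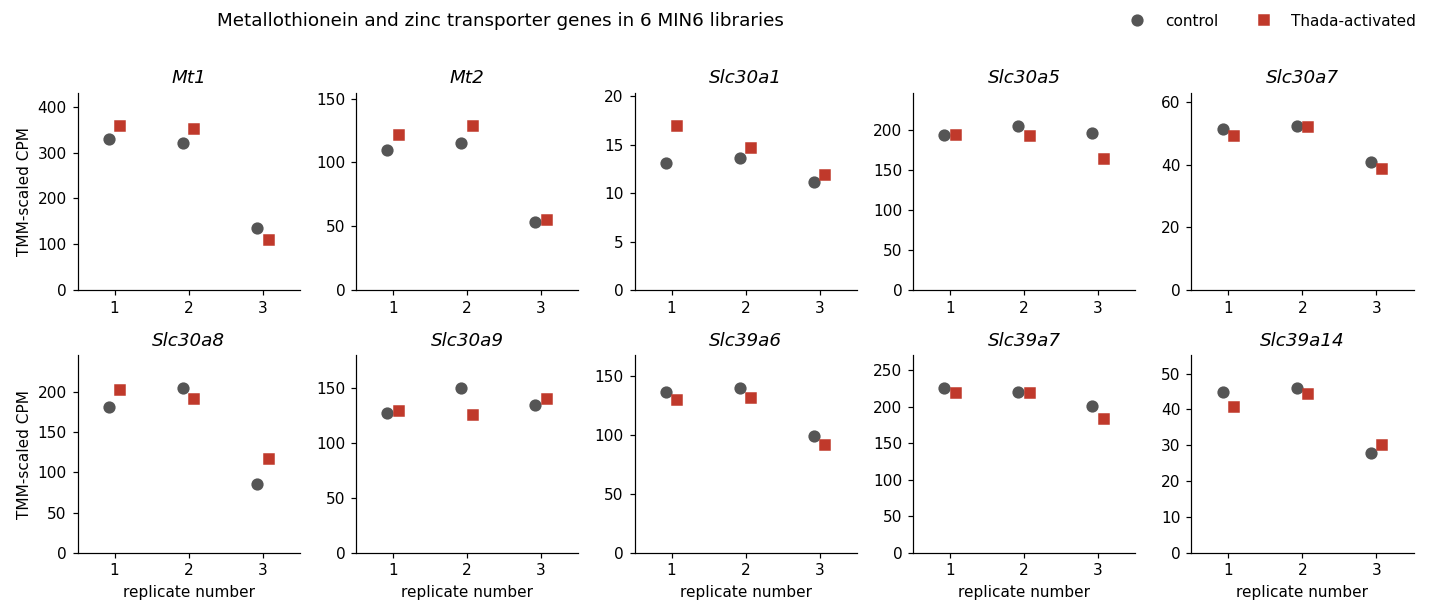
TMM-scaled CPM (vertical axes, from 0) of the 10 genes in each library against the replicate number, with control libraries as grey circles and *Thada*-activated libraries as red squares. *Mt1*, *Mt2* and *Slc30a8* are lower in both replicate 3 libraries than in the 4 others, a gap wider than that between conditions within any number.

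*Slc30a8*, the granule transporter, stood at 182, 205 and 85.7 CPM across control libraries 1, 2 and 3, against 203, 191 and 116 CPM across *Thada*-activated libraries 1, 2 and 3. The conditions overlapped, both replicate 3 libraries were low, and the log2 ratios within numbers 1, 2 and 3 were 0.16, -0.10 and 0.44, of which the last was the widest in size among the 10 genes in replicate 3. The sign differed between replicates 1 and 2, and the log2 fold change by edgeR was 0.11 ± 0.37 (standard error, adjusted p = 1), or 0.16 ± 0.087 with the block (adjusted p = 0.563).

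*Slc30a5* stood at 194, 206 and 196 CPM across control libraries 1, 2 and 3, against 193, 193 and 164 CPM across *Thada*-activated libraries 1, 2 and 3. In CPM it was the only one of the 10 genes whose conditions did not overlap, with every *Thada*-activated library below every control library (two-sided exact test by permutation, p = 0.1). Such a lack of overlap was seen for 5.4% of all tested genes. The gap was small, with 193.4 CPM in the highest *Thada*-activated and 193.8 CPM in the lowest control library, and the log2 fold change by edgeR was -0.11 ± 0.11 (standard error, adjusted p = 1), or -0.12 ± 0.066 with the block (adjusted p = 0.576). In FPKM the conditions overlapped, at 63.3, 68.3 and 64 FPKM across control libraries 1, 2 and 3 and 64.1, 63.7 and 54.9 FPKM across *Thada*-activated ones, so the separation and its p depend on the scale used.

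*Slc30a1* stood at 13.1, 13.7 and 11.1 CPM across control libraries 1, 2 and 3, against 17, 14.7 and 11.9 CPM across *Thada*-activated libraries 1, 2 and 3. It was higher in the *Thada*-activated library of each number, and its log2 fold change by edgeR of 0.20 ± 0.18 (standard error, adjusted p = 1), or 0.19 ± 0.10 with the block (adjusted p = 0.557), was the largest of the 10. Its conditions overlapped in CPM but not in FPKM, where the highest control library had 2.81 and the lowest *Thada*-activated one 2.89 FPKM. It was the only one of the 10 without overlap in FPKM, among 5.02% of all tested genes. *Slc30a7* had log2 ratios of -0.066, -0.014 and -0.082 in replicates 1, 2 and 3, and *Slc30a9* of 0.028, -0.25 and 0.051. *Slc30a9* showed no common direction, and *Slc30a7* was slightly lower in CPM in the *Thada*-activated library of each number, but in FPKM it was higher there in replicates 1 and 2.

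For the importers, the estimates between conditions without the block were smaller than their standard errors, which was not so for *Slc39a6* with the block (-0.095 ± 0.06, adjusted p = 0.628 in edgeR). *Slc39a6* stood at 136, 139.8 and 99.6 CPM across control libraries 1, 2 and 3, against 129.6, 131 and 91.5 CPM across *Thada*-activated libraries 1, 2 and 3. It was lower in the *Thada*-activated library of each number, with a log2 fold change by edgeR of -0.092 ± 0.20 (standard error, adjusted p = 1). *Slc39a7* had log2 ratios of -0.041, -0.0058 and -0.13, and *Slc39a14* of -0.14, -0.052 and 0.10, in replicates 1, 2 and 3. In TMM-scaled CPM, 6 of the 10 genes had the same direction in each of the 3 numbers, among 33% of all tested genes, and 4 of these (*Slc30a5*, *Slc30a7*, *Slc39a6* and *Slc39a7*) were lower and 2 (*Mt2* and *Slc30a1*) higher in *Thada*-activated cells. In FPKM only 3 of the 10 (*Slc30a1*, *Slc39a6* and *Slc39a7*) kept one direction, among 31.5% of all tested genes, so that the direction of *Mt2*, *Slc30a5* and *Slc30a7* depends on the scale.

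Replicate 3 differed from replicates 1 and 2 in far more genes than the conditions did from each other. With the condition in the model, edgeR's quasi-likelihood test called 4 of the 10 genes lower and 0 higher in replicate 3, and 31.1% of all tested genes, 15.4% lower and 15.7% higher. Another 4 of the 10 passed the adjusted p but not the fold change, so that 8 of 10 were lower and 0 higher at an adjusted p under 0.05, against 34.4% lower and 34.3% higher of all tested genes. In the same 8 genes both replicate 3 libraries lay below the 4 others in CPM, as they did in 35.9% of all tested genes, and in FPKM this held for 7 of the 10 (all of these but *Slc30a1*) and 35.5% of all tested genes. The median log2 fold change was -0.43 over the 10 genes and 0.001 over all tested genes. The comparison rests on 2 libraries against 4, and the genes were chosen with this difference known.

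Of the 10 genes *Mt1* fell the most, from 341 ± 18 CPM (SD, n = 4) in replicates 1 and 2 to 122 ± 18.2 CPM (SD, n = 2) in replicate 3, a mean that was 64.2% lower. Its log2 fold change by edgeR was -1.48 ± 0.085 (standard error, adjusted p = 9.7e-09). *Mt2* fell from 119 ± 8.33 CPM (SD, n = 4) to 54.2 ± 0.840 CPM (SD, n = 2), with a log2 fold change by edgeR of -1.13 ± 0.064 (standard error, adjusted p = 2.57e-09). The fall was seen in both conditions, to 0.477 of the mean of replicates 1 and 2 in control and 0.438 in *Thada*-activated cells for *Mt2*. For *Mt1* these ratios were 0.414 and 0.307. *Mt1* and *Mt2* together made up 436 to 481 CPM in replicates 1 and 2, and 189 and 164 CPM in control and *Thada*-activated replicate 3.

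*Slc30a8* fell from 195 ± 10.8 CPM (SD, n = 4) to 101 ± 21.5 CPM (SD, n = 2), a mean that was 48.3% lower, with a log2 fold change by edgeR of -0.96 ± 0.089 (standard error, adjusted p = 8.69e-07). *Slc39a14* stood at 45, 45.9 and 27.9 CPM across control libraries 1, 2 and 3, against 40.7, 44.3 and 29.96 CPM across *Thada*-activated libraries 1, 2 and 3. It fell in replicate 3, with a log2 fold change by edgeR of -0.60 ± 0.076 (standard error, adjusted p = 6.23e-06), just past the threshold of fold change. Both replicate 3 libraries were below the 4 others. Without control replicate 3 its log2 fold change was -0.50, which is under that threshold.

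*Slc39a6*, *Slc30a7*, *Slc30a1* and *Slc39a7* were lower in replicate 3 by less than 1.5-fold. Their log2 fold changes were -0.49, -0.36, -0.34 and -0.20, with adjusted p-values of 2.17e-06, 0.000182, 0.00948 and 0.00427 in edgeR's test. *Slc30a1* missed the adjusted p without *Thada*-activated replicate 3 (adjusted p = 0.0909 in edgeR) and in limma on log2(FPKM + 1) and log2(FPKM + 0.1) (adjusted p = 0.165 and 0.171). *Slc30a5* had an edgeR log2 fold change of -0.13 (adjusted p = 0.0734), its control replicate 3 library being at 196 CPM and its *Thada*-activated one at 164 CPM, and passed the adjusted p in edgeR without control replicate 1 (0.0307), without control replicate 3 (0.00114) and with no filter on low counts (0.0479). *Slc30a9* showed no difference beyond the spread, with 133 ± 11.3 CPM (SD, n = 4) in replicates 1 and 2, 138 ± 3.48 CPM (SD, n = 2) in replicate 3 and a log2 fold change of 0.049 (adjusted p = 0.550 in edgeR's test).

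Whether the difference between conditions was itself different in replicate 3 was tested by an interaction term in edgeR. This test passed for 2 of the 10 genes at an adjusted p under 0.05, among 6.96% of all tested genes. For *Mt1* the term was -0.43 on the log2 scale (standard error 0.092, adjusted p = 0.00104 in edgeR's test), with *Thada*-activated cells higher in replicates 1 and 2 and lower in replicate 3. For *Slc30a8* the term was 0.41 (standard error 0.10, adjusted p = 0.00547 in edgeR's test), with *Thada*-activated cells above control cells in replicates 1 and 3 and below them in replicate 2. Each condition has a single replicate 3 library, so that the spread in replicate 3 was not measured and the test takes it from replicates 1 and 2. The interaction kept an adjusted p of 0.00959 for *Mt1* in DESeq2 and had one of 0.119 for *Slc30a8*. DESeq2 gave an adjusted p to 8 of the 10 (not to *Slc30a1* and *Slc39a14*) and to 5018 genes in all, of which 1 and 2.43% passed.

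The interaction was not limited to these genes. In edgeR it passed for 5 of 8 tested β-cell markers, 3 with a positive term (*G6pc2* 0.51, *Iapp* 0.42 and *Pcsk1* 0.38) and 2 with a negative one (*Mafa* -0.46 and *Ins2* -0.40), with adjusted p-values from 0.000322 to 0.00460. These terms are of a size with those of *Slc30a8* and *Mt1*. DESeq2 gave all 8 an adjusted p and passed 2, *Iapp* and *Pcsk1* (adjusted p = 0.000404 and 0.0166). Of 10 tested iron and manganese genes, 5 passed in edgeR, and 3 of the 6 given an adjusted p passed in DESeq2 (*Slc25a28*, which passed in edgeR, was given none), among them the transferrin receptor *Tfrc* (0.57, adjusted p = 8.5e-05 in edgeR). None of the 13 other zinc genes, 8 copper genes, 6 stress genes and 7 markers of other cells passed in edgeR. DESeq2 gave an adjusted p to only 6, 2, 3 and 1 of these, and none of them passed. The part of the β-cell markers in the terms of *Mt1* and *Slc30a8* was not tested.

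Of 19 other zinc genes, 16 were in the table used and 13 were tested. Between conditions edgeR called 0 of the 13 without the block and 0 with it, with 0 and 3 at an unadjusted p under 0.05 (0.807% and 10.4% of all tested genes), and DESeq2 called 0 without the block. In replicate 3, edgeR called 2 of the 13 higher and 1 lower, against 15.7% and 15.4% of all tested genes. *Slc39a10* (ZIP10), a plasma membrane importer, stood at 38.2, 37.9 and 84.9 CPM across control libraries 1, 2 and 3, against 33.9, 34.4 and 74.3 CPM across *Thada*-activated libraries 1, 2 and 3. It was about 2-fold higher in both replicate 3 libraries, with a log2 fold change by edgeR of 1.14 ± 0.06 (standard error, adjusted p = 1.25e-09).

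*Slc39a3* (ZIP3), another importer, stood at 35.2, 36.8 and 68.5 CPM across control libraries 1, 2 and 3, against 34.7, 34.2 and 57 CPM across *Thada*-activated libraries 1, 2 and 3. It was higher in replicate 3, with a log2 fold change by edgeR of 0.83 ± 0.068 (standard error, adjusted p = 8.3e-08). *Mtf1*, the gene of the zinc sensor, stood at 39.8, 36.7 and 22.9 CPM across control libraries 1, 2 and 3, against 37.8, 39.3 and 26.9 CPM across *Thada*-activated libraries 1, 2 and 3. It was lower in both replicate 3 libraries, with a log2 fold change by edgeR of -0.62 ± 0.08 (standard error, adjusted p = 7.47e-06), and its estimate between conditions was 0.065 ± 0.25 (standard error, adjusted p = 1 in edgeR).

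*Mt3*, a metallothionein best known from brain, stood at 84.3, 56.3 and 55.1 CPM across control libraries 1, 2 and 3, against 87.7, 84.2 and 68.6 CPM across *Thada*-activated libraries 1, 2 and 3. For replicate 3 its log2 fold change by edgeR was -0.34 ± 0.14 (standard error, adjusted p = 0.0686). In *Thada*-activated cells it was higher within each number, with log2 ratios of 0.057, 0.58 and 0.31 in replicates 1, 2 and 3. Its estimate between conditions was 0.30 ± 0.20 without the block and 0.31 ± 0.088 with it (standard errors). It was not called, with an adjusted p of 0.237 in edgeR with the block. It was named after its values were seen. Its lowest libraries were control replicates 2 and 3, and the difference of its change from that of *Mt1* or *Mt2* was not tested. *Slc30a4* (ZnT4), the most abundant of the 16 in CPM, was named after its values were seen too, with -0.15 for replicate 3 on the log2 scale (adjusted p = 0.0817 in edgeR). *Slc30a2* and *Slc30a10* never exceeded 3 counts.

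**Figure D2:**
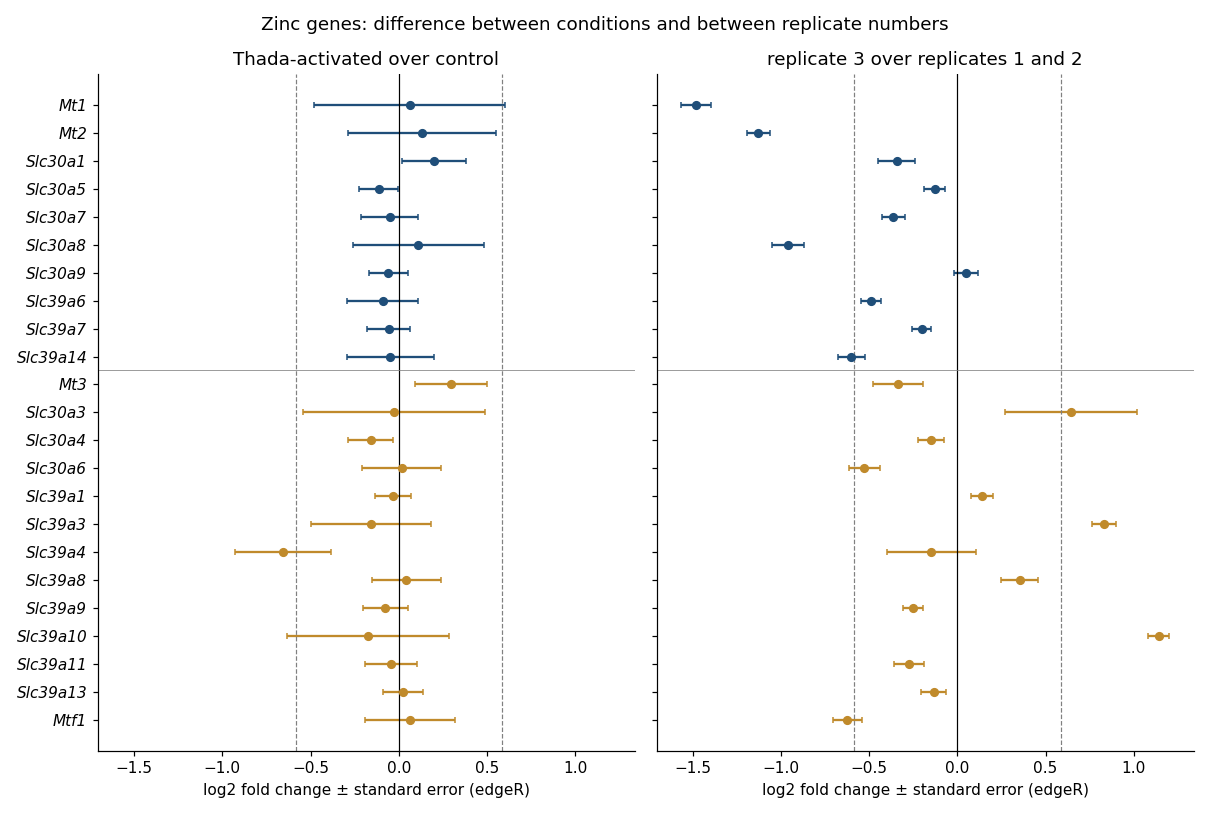
Log2 fold changes with standard errors from edgeR for the 10 genes (blue) and 13 other tested zinc genes (ochre), for *Thada*-activated over control cells (left) and for replicate 3 over replicates 1 and 2 (right); dashed lines mark a 1.5-fold change. On the left all estimates but that of *Slc39a4* (-0.66, not called) lie between the dashed lines, and on the right those of *Mt1*, *Mt2*, *Slc30a8*, *Slc39a14* and *Mtf1* lie below the lower one and those of *Slc39a10*, *Slc39a3* and *Slc30a3* (0.64, not called) above the upper one.

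The genes with a pattern most like that of *Mt1*, *Mt2* and *Slc30a8* were sought among the 9736 tested genes with a mean of at least 10 CPM. Likeness was the root mean square difference of log2 CPM over the 6 libraries, after the mean of each gene was removed. For *Mt1* the nearest were *Entpd7* (0.0353), *Pcdhgc4* (0.0606) and *Ccar1* (0.0687), and *Mt2* came at place 128 with 0.203. For *Mt2* the nearest were *Ccdc84*, *Frmd4b* and *Tbc1d7*, at 0.0334 to 0.0544. For *Slc30a8* they were *Bicd1*, *Btg2* and *Pcdhga6*, at 0.0464 to 0.0538. The protocadherin γ genes share exons, so their counts are uncertain. All of these patterns follow the gap between replicate 3 and the other libraries.

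*Mt2* and *Mt1* are neighbours on chromosome 8 (GRCm38, plus strand), at chr8:94172664-94173568 and chr8:94179082-94180327 in GENCODE M21, with 5513 bp between them. *Slc30a8* lies on the plus strand at chr15:52295553-52335798, *Slc30a1* at chr1:191906767-191913247 on the plus strand, and *Slc39a7* at chr17:34028269-34031682 on the minus strand. The interval of *Mt1* in the authors' table is longer than in GENCODE (to 94184982) and spans *Gm39228*, while *Gm45774* overlaps *Mt2* on the opposite strand. *Slc30a1* (*1700034H15Rik*), *Slc30a7* (*Gm43106*, *Gm6649* and *Mir669n*) and *Slc39a6* (*Elp2*) also share their span with genes of the opposite strand, and *Slc39a7* with *Gm20427* of the same strand. The counting is not stated to use strand, so whether reads of such overlapping genes were kept apart is not known. All 10 genes had whole-number counts in all 6 libraries, without fractions of reads assigned to them.

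RefSeq promoter windows (GRCm38.p6, from 250 bases before to 50 after a gene's start) were at hand for 7 of the 10 genes, all but *Slc30a8*, *Slc39a6* and *Slc39a14*. They were searched on both strands for TGCACNC or TGCGCNC, the core of the metal response element to which MTF1 binds. These 2 forms differ at one base and cannot match at the same place on one strand. At least 1 match was in 25.7% of all 32851 windows, and 3 or more were in 1.97%. *Mt2* had 4 matches, *Mt1* 3, *Slc30a1* 2 and *Slc30a5* 1, and *Slc30a7*, *Slc30a9* and *Slc39a7* had 0 in these windows. The sequences before the starts of *Mt1* and *Mt2*, those of the 10 genes that fell most in replicate 3, are printed 5′ to 3′ on the plus strand with the matches in capitals, and cover chr8:94178839-94179081 and chr8:94172368-94172617.
Mt1: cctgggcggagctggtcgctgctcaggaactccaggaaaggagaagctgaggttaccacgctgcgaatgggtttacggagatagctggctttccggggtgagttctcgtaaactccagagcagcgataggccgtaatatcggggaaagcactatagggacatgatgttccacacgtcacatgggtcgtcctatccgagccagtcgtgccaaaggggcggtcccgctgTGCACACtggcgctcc
Mt2: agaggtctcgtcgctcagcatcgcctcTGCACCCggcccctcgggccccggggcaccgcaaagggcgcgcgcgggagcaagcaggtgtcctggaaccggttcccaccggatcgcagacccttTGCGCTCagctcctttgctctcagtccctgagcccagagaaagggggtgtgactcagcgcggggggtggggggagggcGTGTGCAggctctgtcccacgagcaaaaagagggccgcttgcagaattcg
The other 2 matches of *Mt1* and the fourth of *Mt2* lie after the RefSeq start and are not printed. Bases further than 50 after that start were not searched, and other starts of these genes were not considered. The counts are therefore those of the windows and not of all such elements of a gene. Matches describe these letters only, and MTF1 binding was not measured.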

How the data were processed

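RNA of control and *Thada*-activated MIN6 cells was measured in 3 libraries each. The authors deposited an estimated count per gene and library, without normalization, and FPKM values. Bowtie2, RSEM, DESeq2 and GRCm38 are named in the submitters' processing notes, and of their settings the sources used here give only the cut-offs on q-value and fold change of the study's own comparison. The authors' table also holds means, TPM and a DESeq2 comparison (fold changes, p- and q-values), which were not used. One of its lines is broken inside a text cell, after the values used here.

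Estimated counts (91.1% to 91.9% whole) were rounded. After filterByExpr and TMM, edgeR 4.0.16 in R 4.3.3 gave robust quasi-likelihood tests, with the condition as the only term, or with terms for replicate 3 and its interaction with the condition. Calls needed a fold change over 1.5 and an adjusted p (Benjamini-Hochberg, over all tested genes) under 0.05, or for the interaction the adjusted p alone. The standard errors given for edgeR were derived from its test, as the size of the log2 fold change divided by the square root of the F statistic. Log2 ratios within a replicate number used log2(CPM + 0.5). Single genes were compared by exact permutation tests (SciPy 1.17.1). DESeq2 1.42.0 and limma 3.58.1 on log2(FPKM + 1) and log2(FPKM + 0.1) were alternatives, with other filters, scalings, left-out libraries, the replicate block and a replicate 3 term. The edgeR fits were also run on simulated data, and no result given here rests on those runs. No protein sequences were used here.

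The 10 genes, the lists and the split of replicate 3 were chosen with earlier results of these data known. Named were the 10 genes, *Thada*, called members of the other zinc genes and *Mtf1*, up to 3 genes with the lowest adjusted p in replicate 3 for the copper, iron and stress lists, and the 3 genes nearest in pattern to *Mt1*, *Mt2* and *Slc30a8*. Called cell type markers, those that passed the interaction, *Slc30a3*, *Slc39a4*, *Fkbp5*, *Hmox1* and *Tfrc* were named after their values were seen.

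No source says that a replicate number marks a shared culture or day. After removal of the mean of each condition, libraries of the same number correlated across genes at 0.746, 0.740 and 0.895 for replicates 1, 2 and 3, and replicates 1 and 2 crossed at 0.769 and 0.770, while crossing with replicate 3 gave -0.829 to -0.817. Each same-number correlation was above 0.1, and on these data alone the numbers were taken to pair the libraries. The crossed values of replicates 1 and 2 were above 0.1 too. The correlations therefore put the replicate 3 libraries together but cannot tell number 1 from number 2. For replicates 1 and 2, the ratios within numbers, the shared directions and the block rest on an assumed pairing. No pair of libraries of a condition agreed within sampling noise (chi-square per degree of freedom from 1.84 to 133). A single count was 0.0564 to 0.0583 CPM before scaling.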

Additional observations from a re-analysis of the deposited data

Results flagged for a closer look

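For *Mt1*, edgeR's test of the interaction between *Thada* activation and replicate 3 gave -0.43 on the log2 scale (adjusted p = 0.00104). The same test gave 0.41 for *Slc30a8* (adjusted p = 0.00547), in the opposite direction. For *Thada* itself it gave 0.52 (adjusted p = 0.00935 in edgeR), where *Thada* was 17.2 CPM in control replicate 3 against 28 and 28.9 CPM in control replicates 1 and 2. In DESeq2 the adjusted p was 0.00959 for *Mt1* and 0.119 for *Slc30a8*, while *Thada* had an unadjusted p of 0.0220 and was given no adjusted p. The edgeR test also passed for 6.96% of all tested genes, 5 of 8 β-cell markers (such as *Iapp*, 0.42, and *Ins2*, -0.40, with adjusted p-values of 0.000322 and 0.00190) and 5 of 10 iron and manganese genes (such as *Tfrc*, 0.57, adjusted p = 8.5e-05), and their part was not tested. With 1 replicate 3 library per condition the spread in replicate 3 was not measured, and these p-values take it from replicates 1 and 2.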

How the results depend on the processing

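The number of all tested genes called between conditions was 0 in the edgeR fit with the condition alone, 5 by DESeq2, 19 with the replicate block, 42 with replicate 3 as a batch term, 68 in replicates 1 and 2 alone, and, in alternatives chosen after the data were seen, 70 in replicates 1 and 2 with the block and 18 by DESeq2 with the block. None of the 10 genes was called between conditions in any of these or in the other alternatives run, and the replicate block, under which *Thada* was called (1.15), changed no other call of a named gene. The interaction passed for 871 genes in edgeR and 122 in DESeq2. With each library left out in turn, the log2 fold change between conditions ranged from -0.25 to 0.44 for *Mt1*, -0.14 to 0.43 for *Mt2*, -0.16 to 0.065 for *Slc30a7*, -0.18 to 0.35 for *Slc30a8*, -0.11 to 0.0095 for *Slc30a9*, -0.23 to 0.059 for *Slc39a6*, -0.10 to 0.024 for *Slc39a7* and -0.25 to 0.10 for *Slc39a14*, each crossing 0. These fits have no block, so that leaving out a library makes the replicate numbers unequal between conditions, and with the block and all libraries these genes other than *Mt1* kept their sign. *Slc30a1* stayed above 0 and *Slc30a5* below 0 throughout. The estimate for *Mt1* was also below 0 in limma on log2(FPKM + 1) and log2(FPKM + 0.1) (-0.051 in both), with the block (-0.0095, and -0.015 by DESeq2) and with the batch term (-0.0075), and that for *Slc30a7* was 0.019 in both limma fits. In replicate 3, *Slc30a9* ranged from -0.035 to 0.13 with each library left out. *Mt1*, *Mt2* and *Slc30a8* stayed called in replicate 3 in every alternative run, while *Slc39a14* lost its call without control replicate 3 and in limma on log2(FPKM + 1) (-0.53). *Slc30a1* missed its adjusted p in replicate 3 in 3 of the alternatives, at 0.0909 to 0.171. The causes were not tested. The replicate 3 comparison has only 2 libraries on one side, and the effect of depth was not tested.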

Other observations

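Of 8 copper genes, all tested, edgeR called 0 higher and 1 lower in replicate 3 (15.7% and 15.4% of all tested genes), and 0 between conditions, where 1 passed at an unadjusted p under 0.05 when edgeR had no block and 2 when it had the block (0.807% and 10.4% of all tested genes), and 0 were called with the block or by DESeq2. The one called was *Slc31a1* (CTR1), the copper importer, which stood at 106, 117 and 74.8 CPM across control libraries 1, 2 and 3, against 113, 112 and 68.2 CPM across *Thada*-activated libraries 1, 2 and 3 (log2 fold change -0.65, adjusted p = 6.84e-07). *Sod1*, the copper and zinc superoxide dismutase, and *Atp7a*, a copper pump, had log2 fold changes of 0.24 and -0.28 in replicate 3 (adjusted p = 0.00127 and 0.00222 in edgeR), under the threshold of fold change. Of 11 iron and manganese genes, 10 were tested, with 4 called higher and 1 lower in replicate 3 by edgeR (15.7% and 15.4% of all tested genes) and 0 between conditions, where 0 passed at an unadjusted p under 0.05 when edgeR had no block and 2 when it had the block (0.807% and 10.4% of all tested genes), and 0 were called with the block or by DESeq2. *Pcbp2*, an iron chaperone and RNA-binding protein, rose from 536 ± 13.7 CPM (SD, n = 4) in replicates 1 and 2 to 1059 ± 30.2 CPM (SD, n = 2) in replicate 3 (log2 fold change 0.98, adjusted p = 1.49e-09 in edgeR). *Slc25a28* (mitoferrin 2) and *Slc11a2* (DMT1), both iron transporters, rose with log2 fold changes of 1.03 and 0.68 (adjusted p = 4.16e-07 and 9.2e-07 in edgeR). The one called lower, named after its values were seen, was the transferrin receptor *Tfrc* (log2 fold change -1.46, adjusted p = 1.47e-06 in edgeR). It stood at 191, 212 and 59.5 CPM across control libraries 1, 2 and 3, against 193, 193 and 84.8 CPM across *Thada*-activated libraries 1, 2 and 3.

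Metallothionein genes are also known to respond to glucocorticoids and to oxidative stress. Of 7 genes of these responses, 6 were tested, with 3 called higher and 1 lower in replicate 3 by edgeR (15.7% and 15.4% of all tested genes) and 0 between conditions, where 0 passed at an unadjusted p under 0.05 when edgeR had no block and 1 when it had the block (0.807% and 10.4% of all tested genes), and 0 were called with the block or by DESeq2. *Sgk1*, *Per1* and *Tsc22d3*, which respond to glucocorticoids, rose, with log2 fold changes of 1.80, 0.97 and 0.82 (adjusted p = 1.58e-08, 1.77e-08 and 4.04e-07 in edgeR). *Fkbp5*, which also responds to glucocorticoids and is named after its values were seen, was lower in both replicate 3 libraries than in the 4 others, by less than 1.5-fold (log2 fold change -0.21, adjusted p = 0.0124 in edgeR). *Sgk1* stood at 4.04, 3.66 and 14.6 CPM across control libraries 1, 2 and 3, against 4.33, 3.79 and 13.1 CPM across *Thada*-activated libraries 1, 2 and 3. *Hmox1* (heme oxygenase 1), a gene of the oxidative stress response named after its values were seen, fell in replicate 3 (log2 fold change -0.75, adjusted p = 4.72e-07 in edgeR). It stood at 49.3, 53.5 and 30.9 CPM across control libraries 1, 2 and 3, against 41.4, 44.1 and 25.2 CPM across *Thada*-activated libraries 1, 2 and 3.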
